A study of Mus musculus with 10 samples.

Results

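The 10 genes described here are standard transcriptional targets of the tumour suppressor p53, taken by symbol from a list: Cdkn1a, Mdm2, Ccng1, Eda2r, Aen, Fas, Bax, Sesn1, Trp53inp1 and Zmat3. They were chosen out of 38087 genes in the tables, and all 10 were found and passed the filters on low reads for exons and for introns. The cells were NIH3T3, a mouse fibroblast line of wild type genotype per the labels, with no other allele or agent in any group. Cells were seeded at 37 °C for 4 h and then held for 16 h at either 38 °C or 33 °C. In the downshift the cells went from 38 to 33 °C, in the upshift from 33 to 38 °C, and total RNA was sequenced 0, 1, 3, 6 and 9 h after the move. Each of the 2 courses has 5 samples, 1 per time, so that a p-value measures scatter about a trend in time and not the spread of replicate cultures.

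The p53 protein is a transcription factor that is held low by Mdm2, a ubiquitin ligase whose own gene p53 activates, which closes a feedback loop. When cells meet DNA damage, heat, oxidants or a shortage of nutrients, p53 can accumulate and raise genes that stop the cell cycle, repair DNA, change metabolism or start cell death. Reads in introns come mostly from unspliced, newly made RNA and reads in exons mostly from mature RNA, so a change in synthesis is usually seen in introns before exons.

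Every sample has a complete pair of count columns from numbered series, 5 and 11 in the downshift and 2 and 13 in the upshift. The downshift samples at 1 and 3 h also have a column of series 10, which was kept out of the pooled values. What these numbers stand for is not explained by the labels. A column held 22403590 to 48004603 exon reads and 15313355 to 25233539 intron reads. Both columns of the pair were pooled into 1 value per sample, and within-series values are given where a call rests on 1 pair of series. No series covers both courses, so for levels compared between the courses the course and the series cannot be told apart. For comparisons of the courses, series 5 was set beside 2 and series 11 beside 13. That pairing was a choice made here and is not given by the labels. All 10 fibroblast markers were at a mean exon RPKM (reads per kilobase of exon, scaled to library size) of at least 1, with a summed level of 21230 to 35200 CPM (counts scaled to the exon library size) over the samples. Of the markers of other cell types, 1 of 5 epithelial genes (Krt14) and 1 of 4 blood genes (Cd68) reached that level, and 0 of 3 endothelial and 0 of 3 neural genes did. Their summed levels were 32.7 to 58.2, 1.29 to 2.55, 2.25 to 5.14 and 0 to 0.036 CPM, with Cd3e, Tubb3 and Sox2 at 0, and their part in the results was not tested.

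Per length of exon, Ccng1 was the highest of the 10 genes, at 75.3 to 212.6 RPKM over the 10 samples, followed by Bax at 44.9 to 67.7 RPKM. Aen (18.9 to 38.7 RPKM), Mdm2 (18.5 to 35.4), Cdkn1a (15.9 to 33.8) and Eda2r (8.92 to 23.7) formed a middle group with overlapping ranges. Zmat3 (4.13 to 7.46 RPKM), Sesn1 (4.11 to 6.75) and Trp53inp1 (2.36 to 6.51) overlapped each other at a lower level, and Fas was lowest, at 0.669 to 4.22 RPKM.

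In exon reads most of these genes followed the temperature: they fell after the move to 33 °C and lay higher after the move to 38 °C. In edgeR's quasi-likelihood test of the trend over log2(h + 1), called at an adjusted p of 0.05, 6 of the 10 fell in the downshift, Cdkn1a, Mdm2, Ccng1, Eda2r, Aen and Zmat3, and 1 rose, Sesn1. Among all 10172 genes tested 15.9% were called lower and 16.3% higher in that course, 32.2% in all. In the upshift 3 of the 10 rose, Ccng1, Aen and Bax, and 0 fell, where 14.5% of all genes were called higher, 18.6% lower and 33.1% in all. At an unadjusted p under 0.05 in edgeR the upshift count was 4, where 44.5% of all genes passed. The count of upshift calls was 4 in DESeq2 and 3 in limma, and the shares of all genes called by those tools are not given here. The difference between the courses, downshift minus upshift, was called for 7 of 10 genes, 6 lower (Cdkn1a, Mdm2, Ccng1, Eda2r, Aen and Bax) and 1 higher (Sesn1). Over all genes 46.9% were called in this difference, 21.7% lower and 25.2% higher. The median fitted difference was -1.30 (log2) over the 10 genes and 0.04 over all genes tested.

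**Figure D1:**
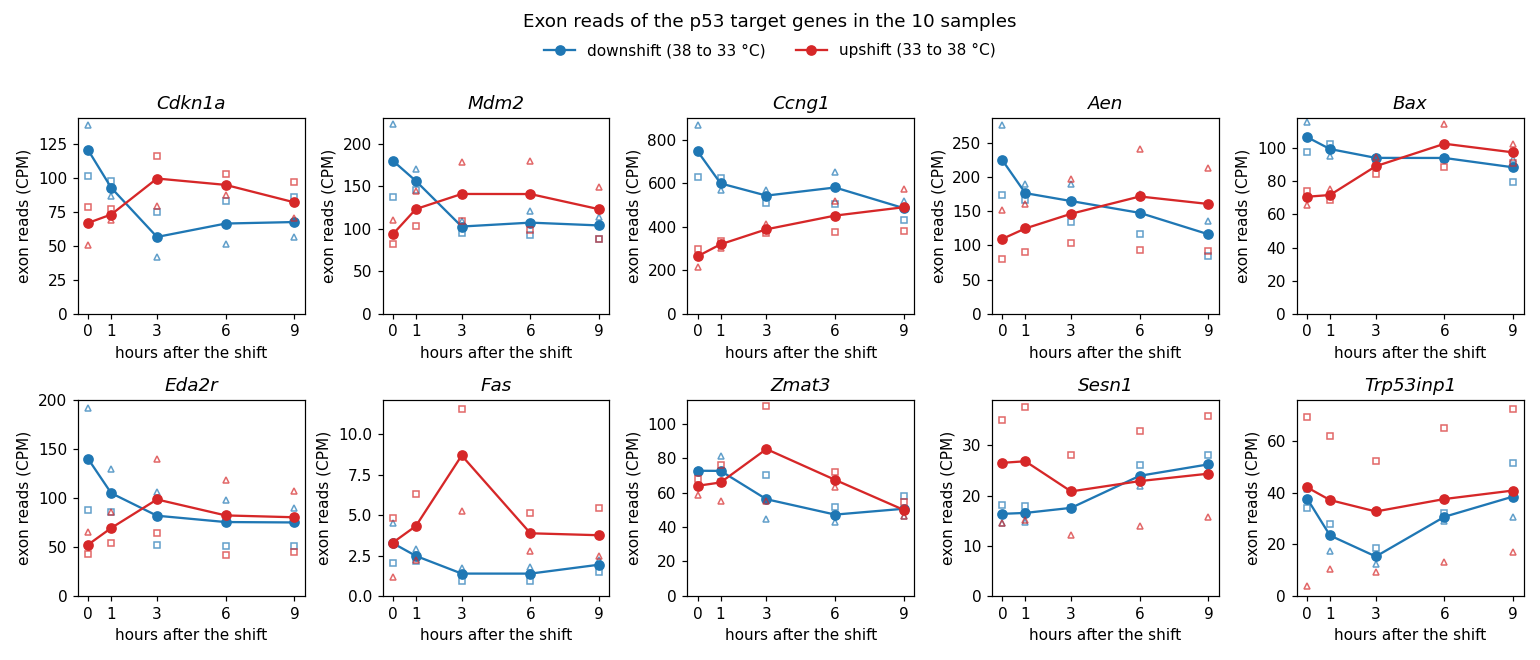
Exon reads in CPM (vertical axis) against hours after the shift (horizontal axis) for each of the 10 genes, with the summed samples as filled circles joined by lines, downshift in blue and upshift in red, and single column series as open triangles (series 5 and 2) and open squares (series 11 and 13). Ccng1 falls from 747 to 485 CPM in the downshift and rises from 264.5 to 489.8 CPM in the upshift, while for Trp53inp1, Sesn1 and Fas the open symbols of the upshift lie far apart.

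The calls depended on the samples at 0 h. Without the downshift sample at 0 h, 2 of the 10 genes were called in the downshift, and without the upshift sample at 0 h, 4 were called in the difference. The shares of all genes called in such fits are not given here. Whether these genes depended on the 0 h samples more than others was not tested. Without the upshift sample at 9 h, 5 were called in the upshift, Mdm2 (0.63, adjusted p = 0.049) and Eda2r (0.81, adjusted p = 0.0374) being added, and without the downshift sample at 3 h Cdkn1a was (0.49, adjusted p = 0.0439). Of RNA from whole cultures it cannot be told whether fewer cells carried an RNA or each cell held less of it.

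Cdkn1a encodes p21, the inhibitor of cyclin-dependent kinases through which p53 stops the cell cycle, and lies on chr17:29090976-29100727, plus strand, in GRCm38. Its exon level at 0, 1, 3, 6 and 9 h was 120.2, 92.7, 56.5, 66.4 and 67.5 CPM in the downshift. In the upshift it was 66.9, 73.0, 99.5, 94.8 and 81.9 CPM. The 0 h sample at 38 °C was the highest of all, the downshift had reached its lowest level by 3 h, and the upshift peaked at 3 h without reaching the 0 h level of the other course. The fitted change was -0.86 ± 0.22 (log2, SE, adjusted p = 0.0155) in the downshift and 0.49 ± 0.24 (adjusted p = 0.142) in the upshift, and their difference was -1.35 ± 0.32 (adjusted p = 0.00726). The fall came mostly from 1 pair of series: within series 5 it was -1.42 (adjusted p = 0.00788) and within series 11 it was -0.30 (adjusted p = 0.257). The downshift call was also lost without the 0 h sample of that course (-0.48, adjusted p = 0.322), and the call of the difference without the 0 h sample of either course (adjusted p of 0.0815 and 0.0675). With time entered as linear hours, neither the downshift change (-0.69, adjusted p = 0.0996) nor the difference (-1.04, adjusted p = 0.0748) was called. An unclassified transcript on the other strand overlaps Cdkn1a, and no source used here states how strand entered the counting.

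The promoter of Cdkn1a is shown because it alone, among these genes with a window, matched the full p53 site by exact consensus. That site is a pair of half-sites with at most 13 bases between them. Near matches were not counted: the bases tgacatgttc, directly after the capitals nearer the start, fail the half-site consensus by their first letter alone. The window is chr17:29090729-29091028 (GRCm38.p6, plus strand, from RefSeq), 250 bases before to 50 after the annotated start, and capitals mark the half-sites, which begin 73 and 51 bases upstream.
Cdkn1a: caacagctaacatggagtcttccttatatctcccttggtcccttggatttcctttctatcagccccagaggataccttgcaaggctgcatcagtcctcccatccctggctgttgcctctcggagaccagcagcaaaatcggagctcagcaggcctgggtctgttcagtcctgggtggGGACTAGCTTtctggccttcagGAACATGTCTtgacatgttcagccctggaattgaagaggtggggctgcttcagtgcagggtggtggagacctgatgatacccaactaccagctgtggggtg
A window at the other annotated start of Cdkn1a held no half-site.

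Ccng1 encodes cyclin G1, which recruits a protein phosphatase to Mdm2 and is a well-known p53 target, and lies on chr11:40748552-40755311, minus strand. Its exon level was 746.5, 599, 543, 580.5 and 485 CPM in the downshift. In the upshift it was 264.5, 319, 388, 451 and 489.8 CPM. The upshift climbed at every time and ended at the level that the downshift had come down to. The fitted change was -0.53 ± 0.09 (adjusted p = 0.00364) in the downshift and 0.87 ± 0.10 (adjusted p = 0.000387) in the upshift. The difference of -1.40 ± 0.13 had the lowest adjusted p of the 10 genes, 0.00011, and it was called in series 2 and 5 (-1.96) as well as in series 11 and 13 (-0.90). Within series 2 the rise was 1.43 and within series 13 0.37, and the downshift call was lost without its 0 h sample (-0.37, adjusted p = 0.0953) and as a step from 0 h to the later samples (-0.50, adjusted p = 0.0795).

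Mdm2, the ubiquitin ligase of the feedback loop, lies on chr10:117688875-117710758, minus strand. Its exon level was 180.2, 156.5, 103, 107 and 104 CPM in the downshift. In the upshift it was 93.9, 123, 141, 141 and 123 CPM. As with Cdkn1a, the low plateau of the downshift began at 3 h, and all later upshift samples lay above the upshift sample at 0 h and below the downshift sample at 0 h. The fall in the downshift was called, at -0.91 ± 0.18 (adjusted p = 0.00593), and the upshift change of 0.35 ± 0.19 was not (adjusted p = 0.195). Their difference was -1.25 ± 0.27 (adjusted p = 0.00386), with -1.55 in series 2 and 5 alone and -0.89 in series 11 and 13 alone. Without the upshift sample at 0 h the difference was -0.87 (adjusted p = 0.051), and without the downshift sample at 0 h the fall was -0.87 (adjusted p = 0.0708).

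The promoters of Ccng1 and Mdm2 are shown beside that of Cdkn1a because each held 1 exact half-site and no exact full site. In Ccng1 the bases agacctgccc, directly before the capitals, fail the half-site consensus only by a C where A or T is needed. Sites outside the windows were not searched. They are chr11:40755237-40755536 and chr10:117710709-117711008 (GRCm38.p6, minus strand, from RefSeq), printed on the strand of the gene. Capitals mark the half-site, 185 bases upstream of the start in Ccng1 and 186 in Mdm2.
Ccng1: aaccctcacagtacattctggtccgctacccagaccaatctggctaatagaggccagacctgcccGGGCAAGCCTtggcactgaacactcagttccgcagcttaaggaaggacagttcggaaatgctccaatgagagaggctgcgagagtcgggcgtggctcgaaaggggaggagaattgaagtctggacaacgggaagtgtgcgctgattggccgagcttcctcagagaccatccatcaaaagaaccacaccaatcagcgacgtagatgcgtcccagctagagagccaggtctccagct
Mdm2: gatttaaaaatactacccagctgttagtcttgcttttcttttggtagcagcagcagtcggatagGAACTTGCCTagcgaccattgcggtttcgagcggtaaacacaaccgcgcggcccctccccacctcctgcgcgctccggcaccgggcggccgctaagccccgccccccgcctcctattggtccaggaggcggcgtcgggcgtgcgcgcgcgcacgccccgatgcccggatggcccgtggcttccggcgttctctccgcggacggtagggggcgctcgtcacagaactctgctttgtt

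Of the genes linked to cell death, Eda2r, a receptor of the tumour necrosis factor family for ectodysplasin A2 (chrX:97333840-97377216, minus strand), had exon levels of 139.9, 105, 82.0, 75.5 and 75.1 CPM in the downshift. In the upshift its levels were 52.55, 69.4, 98.65, 82.3 and 80.4 CPM. Its level changed little after 3 h of the downshift and peaked at 3 h in the upshift. The downshift change was -1.02 ± 0.21 (adjusted p = 0.00627), the upshift change 0.51 ± 0.23 (adjusted p = 0.11) and the difference -1.53 ± 0.31 (adjusted p = 0.00292). Taken alone, series 2 and 5 gave a difference of -1.90, and series 11 and 13 one of -0.91 (adjusted p = 0.0641). In the upshift the series parted, at 0.84 (adjusted p = 0.027) in series 2 and -0.03 in series 13, and without the downshift sample at 0 h the fall was -0.90 (adjusted p = 0.0914).

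Aen, a nuclease that acts in apoptosis (chr7:78895854-78911209, plus strand), had exon levels of 225, 176.5, 165, 148 and 116 CPM in the downshift. In the upshift its levels were 109.6, 125, 146, 172 and 161 CPM. Its downshift levels fell at every time, to about the level of the upshift sample at 0 h. Both changes were called, -0.88 ± 0.11 (adjusted p = 0.00172) and 0.50 ± 0.12 (adjusted p = 0.0103), and so was the difference of -1.38 ± 0.16 (adjusted p = 0.000223). The downshift change was alike in series 5 and 11, -0.85 and -0.95. In the upshift it was 0.66 in series 2 and 0.22 (adjusted p = 0.362) in series 13, and without the upshift sample at 0 h the rise was 0.47 (adjusted p = 0.114). As a step from 0 h to 3, 6 and 9 h neither change of Aen was called, at -0.69 (adjusted p = 0.0719) in the downshift and 0.43 (adjusted p = 0.177) in the upshift.

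Bax, which opens the outer membrane of mitochondria in apoptosis (chr7:45461697-45466898, minus strand), moved least of the 6 genes called lower. Its exon levels were 107, 99.5, 94.2, 94.1 and 88.45 CPM in the downshift. In the upshift they were 70.7, 71.7, 89.1, 103 and 97.5 CPM. The upshift levels stayed near the 0 h level at 1 h and lay higher from 3 h on. The rise was 0.56 ± 0.09 (adjusted p = 0.00199), the downshift change -0.25 ± 0.09 (adjusted p = 0.058) and the difference -0.81 ± 0.13 (adjusted p = 0.00086), called in both pairs of series at -1.07 and -0.64. The downshift change passed the threshold in DESeq2 (adjusted p = 0.0416) and when any of 4 upshift samples was left out. Another gene on the same strand, Gm45808, overlaps Bax, and reads shared between them may be counted for either.

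Fas, the receptor through which Fas ligand kills cells (chr19:34290666-34327772, plus strand), had few reads, between 29 and 462 exon reads in a column. Its exon levels were 3.26, 2.47, 1.38, 1.38 and 1.93 CPM in the downshift. In the upshift they were 3.30, 4.33, 8.69, 3.88 and 3.755 CPM. A single upshift sample, that at 3 h, stood above all others, and both series showed it, at 5.23 CPM in series 2 and 11.6 CPM in series 13. Neither the changes (-1.12 ± 0.54 and 0.40 ± 0.56, adjusted p of 0.132 and 0.615) nor the difference (-1.52 ± 0.78, adjusted p = 0.131) was called. Without the upshift sample at 3 h the difference was -1.39 with an adjusted p of 0.0253, and the downshift change -1.13 with an adjusted p of 0.0211.

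Sesn1 ran the other way. It encodes sestrin 1, which lowers growth signalling through mTORC1 (chr10:41809935-41908424, plus strand), and its exon levels were 16.4, 16.55, 17.6, 24.0 and 26.2 CPM in the downshift. In the upshift they were 26.5, 26.9, 20.8, 22.9 and 24.4 CPM. The downshift samples at 6 and 9 h lay above those at 0, 1 and 3 h, while the upshift showed no steady direction. The rise in the downshift was 0.74 ± 0.18 (adjusted p = 0.012), the upshift change -0.06 ± 0.17 (adjusted p = 0.828) and the difference 0.79 ± 0.25 (adjusted p = 0.0237). The rise was called in series 5 (0.81) and in series 11 (0.68), and lost its call without the downshift sample at 9 h (adjusted p = 0.0886). The call of the difference was lost within series 11 and 13 (adjusted p = 0.0543) and without any of 4 samples, the downshift at 6 or 9 h or the upshift at 0 or 6 h (adjusted p of 0.0545, 0.0886, 0.0966 and 0.0538). As a step from 0 h to 3, 6 and 9 h, neither the rise (0.48, adjusted p = 0.231) nor the difference (0.58, adjusted p = 0.208) was called.

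Trp53inp1, a stress protein tied to cell death and autophagy (chr4:11156431-11174379, plus strand), was lowest in the middle of the downshift. Its exon levels were 37.8, 23.45, 15.3, 30.7 and 38.6 CPM in the downshift. In the upshift they were 42.1, 37.2, 32.8, 37.6 and 40.9 CPM. The downshift sample at 3 h was 0.405 times the 0 h level, and the sample at 9 h 1.02 times, a course that a straight trend cannot follow (0.07 ± 0.40, adjusted p = 0.908). Both series held the dip at 3 h, with log2 differences from 0 h of -1.73 in series 5 and -0.87 in series 11. The upshift values combine unlike columns: at 0 h Trp53inp1 stood at 3.71 CPM in series 2 and at 69.5 CPM in series 13, and the fitted upshift change was 1.73 (adjusted p = 0.0548) in the former and 0.05 in the latter. Sesn1 differed in the same direction between these columns, at 14.6 and 35.1 CPM.

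Zmat3, a zinc finger protein that binds RNA (chr3:32334792-32366014, minus strand), had exon levels of 72.7, 72.6, 56.2, 47.2 and 50.6 CPM in the downshift. In the upshift its levels were 63.95, 65.9, 85.3, 67.4 and 49.9 CPM. The upshift was highest at 3 h and lowest at 9 h. The fall in the downshift was -0.64 ± 0.22, with an adjusted p of 0.0495 at the edge of the threshold, and the difference between the courses was -0.54 ± 0.32 (adjusted p = 0.198). Within series 11 the fall was -0.38 (adjusted p = 0.397). Leaving out any 1 of the 5 downshift samples or the upshift sample at 1 or 6 h ended the call of the fall. Linear hours (-0.59, adjusted p = 0.0667) and the step (-0.48, adjusted p = 0.222) ended it too. So did other scaling of the libraries (-0.63, adjusted p = 0.0509) and limma (-0.63, adjusted p = 0.0573). Without the upshift sample at 9 h the difference was called, at -0.95 (adjusted p = 0.015).

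None of the 10 genes moved the same way after both shifts beyond the threshold. The mean of the changes in the courses was called for 0 of 10 genes by edgeR, DESeq2 and limma. In edgeR 3.26% of all genes were called, and 5 of the 10 had an unadjusted p under 0.05, against 19.5% of all genes. Within series 2 and 5 the mean was called for Ccng1 alone (0.45, adjusted p = 0.0437).

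Before the shift the levels of these genes already differed between the courses. After 16 h at 38 °C the exon level was at least 1.5-fold higher than after 16 h at 33 °C for 6 of 10 genes, where 8.61% of all genes were: 2.82-fold for Ccng1, 2.66 for Eda2r, 2.05 for Aen, 1.92 for Mdm2, 1.80 for Cdkn1a and 1.51 for Bax. In the summed samples Sesn1 was lower at 38 °C, at 0.617 times its level at 33 °C. That lower level was seen in series 11 and 13 (0.518 times) and not in series 5 and 2 (0.998 times). At 9 h, with the temperatures exchanged, 1 of 10 genes, Fas, was at least 1.5-fold higher at 38 °C, where 7.13% of all genes were, and the median log2 difference had gone from 0.72 to 0.12. The 9 h samples did not reach the 16 h levels of the same temperature for every gene. Ccng1 after 9 h at 33 °C stood 1.835-fold above its level after 16 h at 33 °C, and Cdkn1a 1.01-fold. After 9 h at 38 °C the 6 genes stood at 0.575 (Eda2r) to 0.913 (Bax) times their level after 16 h at 38 °C. These are 1 sample against 1, with no test, and between the courses temperature cannot be told apart from the series. As paired here, the series gave unlike folds at 0 h. Within series 5 and 2, 8 of 10 genes were at least 1.5-fold higher at 38 °C. Within series 11 and 13, 4 were, namely Aen (2.17), Ccng1 (2.10), Eda2r (2.02) and Mdm2 (1.66). The shares of all genes within these pairs are not given here. The pairing was a choice made here, and another pairing of the same columns would give other folds. Cdkn1a was 2.75-fold higher in the former and 1.29-fold in the latter, and Bax 1.77-fold and 1.31-fold. Fas and Trp53inp1, both among the 8, pointed opposite ways. Fas was at 3.86-fold and 0.42-fold, and Trp53inp1 at 11.2-fold and 0.49-fold. The higher level of Fas at 9 h came from series 13 and 11 (3.74-fold) more than from series 2 and 5 (1.12-fold).

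In the summed samples most of the displacement of intron reads was present at 1 h, when fewer exon levels were displaced. At 1 h of the downshift the intron level was below that at 0 h in 10 of 10 genes, and by at least 1.5-fold in 6, Mdm2 (-0.86 on the log2 scale), Fas (-0.80), Cdkn1a (-0.69), Ccng1 (-0.65), Trp53inp1 (-0.63) and Aen (-0.59). Of all 9350 genes with introns tested, 4.12% were as much lower, and the median log2 difference was -0.61 over the 10 genes and -0.03 over all. In exon reads 1 of 10 was that much lower at 1 h, Trp53inp1, against 0.757% of all genes, and at 3 h 5 were, against 3.74%. Taken singly, series 5 and series 11 each had all 10 genes lower in introns at 1 h, with medians of -0.66 and -0.46. In exons series 5 already had 8 of 10 lower at 1 h, with a median of -0.55, and series 11 had 7 of 10 lower with a median of -0.03, so that exons and introns lay apart at 1 h mostly in series 11.

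The upshift mirrored this at 1 h and turned back in part at 3 h. Intron reads at 1 h were above 0 h in 9 of 10 genes and at least 1.5-fold higher in 6, against 5.21% of all genes: Fas (3.90-fold), Ccng1 (1.69), Mdm2 (1.69), Aen (1.60), Eda2r (1.56) and Cdkn1a (1.55). Exon reads at 1 h were that much higher in 0 of 10 genes, against 1.22%. At 3 h the intron level was lower than at 1 h in 9 of 10 genes, all but Bax, with a median of -0.34, while over all genes the median was 0.08. Mdm2 shows the pattern in full, with intron levels of 85.25, 144, 103, 122 and 135 CPM in the upshift. In the downshift its intron levels were 199, 109.8, 106, 112.5 and 107.5 CPM. After the downshift Mdm2 introns were at a low plateau from 1 h on, and after the upshift they were highest at 1 h, lower at 3 h and higher again at 6 and 9 h. Over the 10 genes, the upshift intron medians in series 2 were 0.70, 0.44, 0.78 and 0.82 above 0 h (log2) at 1, 3, 6 and 9 h. In series 13 they were 0.62, 0.26, 0.27 and 0.32, so the median stayed below its 1 h value through 9 h in series 13 alone.

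Cdkn1a introns also fell by 1 h of the downshift, at 56.85, 35.25, 31.7, 33 and 36.75 CPM. At 9 h of the downshift the series parted, with log2 differences from 0 h of -1.04 in series 5 and -0.12 in series 11. In the upshift Cdkn1a introns were at 24.65, 38.3, 30.8, 36.75 and 41.2 CPM, lower at 3 h than at 1 h but highest at 9 h. The sharpest spike was that of Fas, whose introns were at 4.37, 17.1, 7.48, 5.96 and 5.88 CPM in the upshift, against 4.605, 2.635, 1.71, 2.30 and 2.83 CPM in the downshift. The spike at 1 h was present in both series, with log2 differences from 0 h of 1.85 in series 2 and 2.12 in series 13, and the exon peak of Fas came at the next sample, 3 h. Zmat3 introns also peaked at 1 h of the upshift, at 60.03 CPM between 42.6 CPM at 0 h and 42.8 CPM at 3 h, and its summed exon level was highest at 3 h. That exon peak was in series 13 (0.70 above 0 h on the log2 scale), while in series 2 the exons were slightly below 0 h at 1 and 3 h (-0.09 and -0.08) and highest at 6 h (0.11). Trp53inp1 was the only gene whose introns were not higher at 1 h of the upshift, and there series 2 and 13 pointed opposite ways, at 1.67 and -0.03. Sesn1 introns stood at 73.85 CPM at 0 h and 98.01 CPM at 1 h of the upshift, while its exon level was 26.5 and 26.9 CPM.

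**Figure D2:**
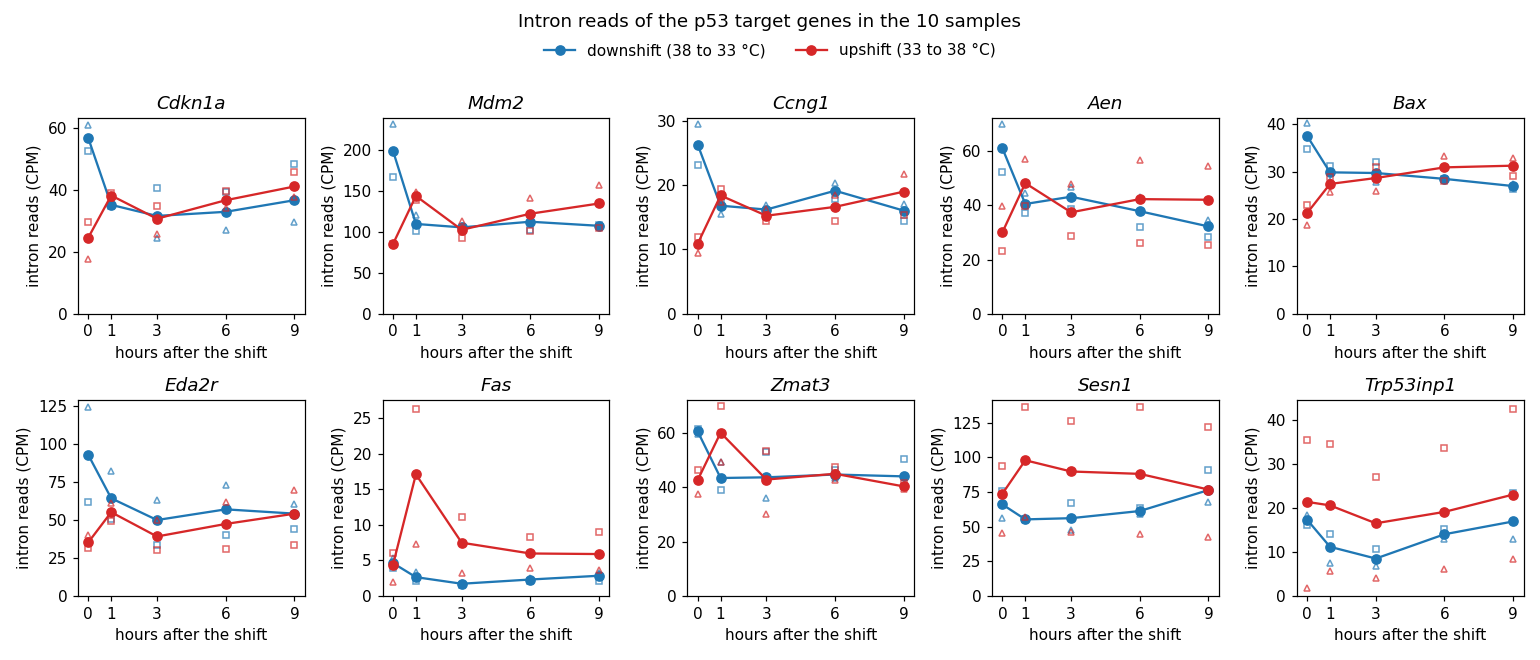
Intron reads in CPM of the exon library (vertical axis) against hours after the shift (horizontal axis) for each gene, with summed samples as filled circles joined by lines, downshift in blue and upshift in red, and single series as open triangles (5 and 2) and open squares (11 and 13). Mdm2 drops from 199 to 109.8 CPM in the first hour of the downshift and rises from 85.25 to 144 CPM in the first hour of the upshift, and Fas spikes to 17.1 CPM at 1 h of the upshift.

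**Figure D3:**
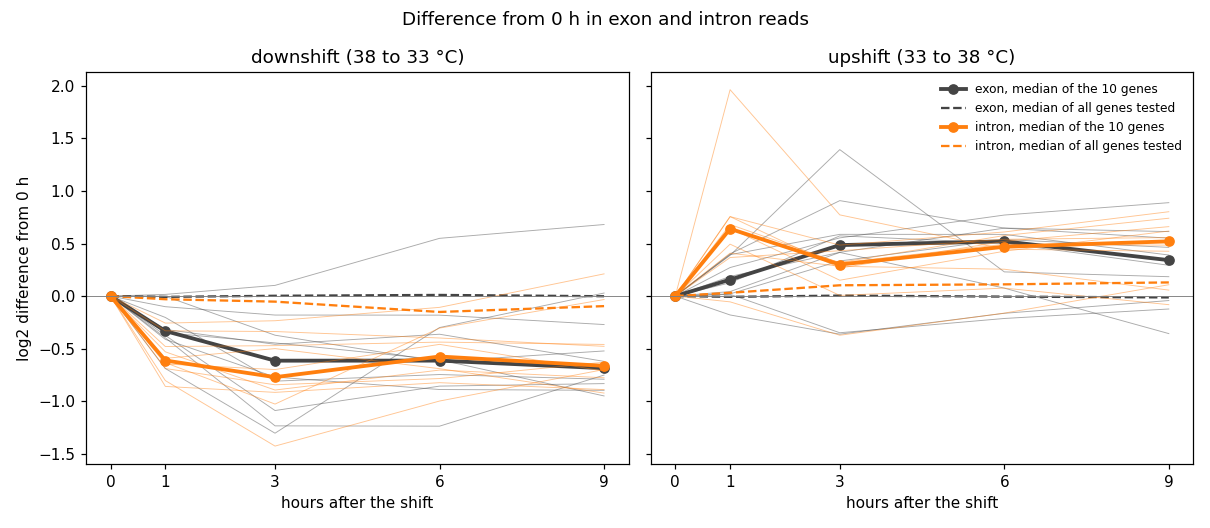
Log2 difference from the 0 h sample of the same course (vertical axis) against hours after the shift (horizontal axis), with 1 thin line per gene, the median of the 10 genes as thick lines with circles (exon grey, intron orange) and the median of all genes tested as dashed lines. The intron median is at -0.61 at 1 h of the downshift where the exon median is at -0.33, and at 0.64 against 0.16 at 1 h of the upshift.

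The intron levels stepped early and then stayed or turned, and the trend over log2(h + 1) called 0 of 10 genes for introns in each contrast in edgeR, where 1.88% of all genes were called in the downshift, 2.26% in the upshift and 7.75% in the difference. At an unadjusted p under 0.05 the counts were 3, 1 and 1, where 20.4%, 18.3% and 26.5% of all genes passed. For the same contrasts limma called 0 in each, and DESeq2 called 0, 0 and 1 (Bax, adjusted p = 0.034). Their shares of all genes called are not given here. Without the upshift sample at 1 h, 3 genes were called lower in the difference, Eda2r (-0.998), Aen (-0.92) and Bax (-0.70), and without that at 0 h Aen was called in the downshift (-0.65) and Fas in the upshift (-2.27, adjusted p = 0.043). A fit of a step from 0 h to the samples at 3, 6 and 9 h, listed as an alternative and without the 1 h samples, called 7 of 10 genes lower in the difference, where 22% of all genes were called in either direction. They were Mdm2 (-1.12 ± 0.17, adjusted p = 0.00373), Bax (-0.69 ± 0.13), Eda2r (-0.96 ± 0.20), Cdkn1a (-1.08 ± 0.23), Ccng1 (-1.02 ± 0.22), Aen (-0.86 ± 0.20) and Fas (-1.46 ± 0.35, adjusted p = 0.0205). In the downshift alone the step was called for 5 genes, Mdm2, Eda2r, Aen, Cdkn1a and Fas, by -0.94 in Fas to -0.61 in Aen, where 9.71% of all genes were called. In the upshift alone it was called for 0 of 10, where 3.75% of all genes were, and the nearest was Bax at 0.38 ± 0.10 (adjusted p = 0.0626).

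The ratio of exon to intron reads was displaced at 1 h in both courses, and the other way at 3 h of the upshift. At 1 h of the upshift it was below its 0 h value in 10 of 10 genes, where 55.4% of all genes were lower, with medians of -0.42 and -0.04 (log2). At 1 h of the downshift it was above in 9 of 10, all but Trp53inp1, where 52.6% of all genes were higher, with medians of 0.29 and 0.02. At 3 h of the upshift it was above its 0 h value in 8 of 10 genes, where 32.6% of all genes were higher. The medians there were 0.18 and -0.11. At 3 h of the downshift it was above in 8 of 10, where 58.2% of all genes were higher, with medians of 0.12 and 0.05. By 9 h the medians were 0.02 in the downshift and -0.17 in the upshift, against 0.07 and -0.16 over all genes. For Mdm2 there were 1.102 exon reads per intron read at 0 h of the upshift, 0.857 at 1 h and 1.38 at 3 h. In the trend test the ratio was called for 0 of 10 genes in each contrast by edgeR, DESeq2 and limma. In edgeR 0 had an unadjusted p under 0.05, where 18.8%, 21.4% and 31.9% of all genes passed in the downshift, the upshift and the difference. Of all genes edgeR called 3.25% in the downshift, 5.19% in the upshift and 17.7% in the difference. The largest fitted difference, -1.15 ± 1.42, was that of Fas, and the next was that of Sesn1, 0.76 ± 0.41 (adjusted p = 0.217), in the direction of its exon change.

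**Figure D4:**
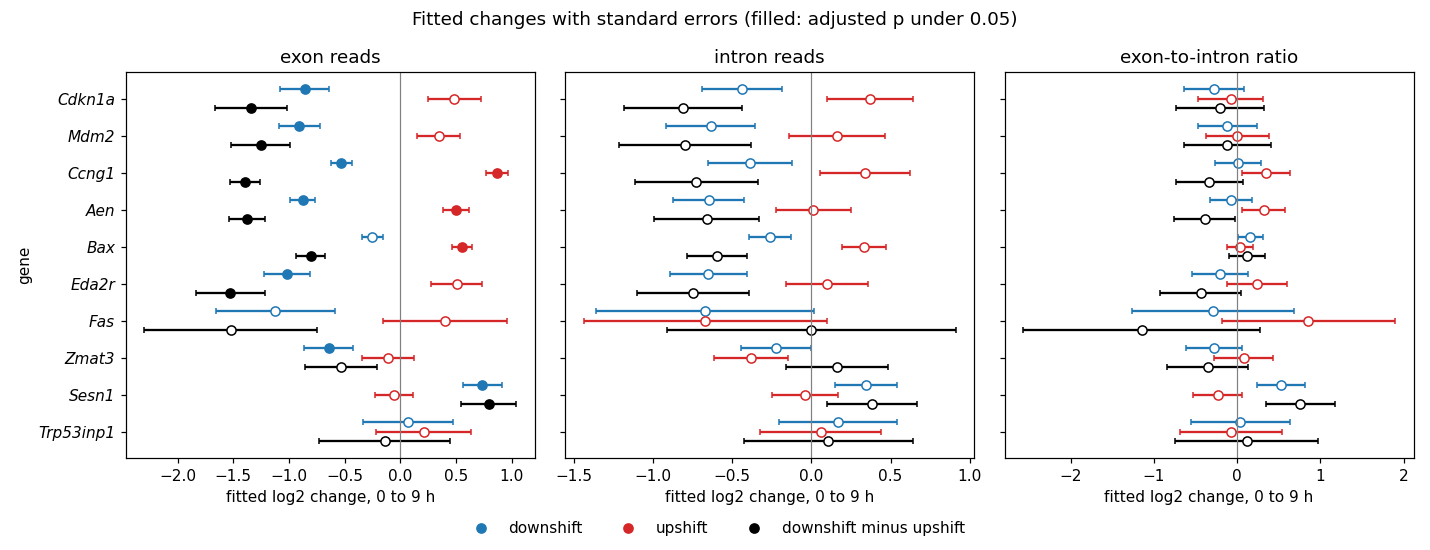
Fitted log2 change from 0 to 9 h (horizontal axis) of each gene (vertical axis) in exon reads, intron reads and the exon-to-intron ratio, in the downshift (blue), the upshift (red) and their difference (black), with bars of 1 standard error and filled circles where the adjusted p is under 0.05. Filled circles appear only in the exon panel, 7 in the downshift, 3 in the upshift and 7 in the difference.

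Over the 10 samples, the 6 genes called lower in the difference varied together in log2 exon CPM. Their 15 pairs had Pearson correlations of 0.34 (Cdkn1a with Ccng1) to 0.93 (Cdkn1a with Mdm2), with a median of 0.78. Sesn1 correlated negatively with each of the 6, from -0.83 to -0.45. Zmat3 ranged from -0.15 to 0.68, Trp53inp1 from -0.37 to 0.35 and Fas from -0.45 to 0.62. The 6 genes were picked by their calls in these same 10 samples, as was Sesn1 as the gene called higher. Positive values among the 6 and negative ones with Sesn1 therefore follow in part from that choice. The points also share libraries and temperatures and belong to 2 courses, so these values only describe.

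With the windows printed above, the promoter table held 8 of the 10 genes, in 11 windows of the same length, and none for Trp53inp1 and Zmat3. The p53 half-site, searched on both strands by exact match to its consensus, was present in 6 of the 8 genes (7 of 11 windows) and in 8.36% of all 32851 windows. Besides Cdkn1a, Ccng1 and Mdm2 these were Aen (GGGCTTGTCC), Bax (AGGCAAGCTT, 201 bases upstream) and Sesn1 (AAGCTTGTTT, 173 bases upstream of 1 of its starts). Both windows of Aen cover the same match. Exact full sites were found in Cdkn1a alone, and in 0.0731% of all windows (24 of them). The core of the heat shock element, searched on both strands, was in 0 of the 8 genes and in 0.603% of all windows. A match describes letters and not binding. Sesn1, which moved against the genes called lower, held a half-site in 1 of its windows, while Eda2r and Fas held none.

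The gene of p53 itself varied little, and the level of p53 protein was not analysed here. Trp53 exon reads were between 50.02 and 60.4 CPM in the 10 samples, with a fitted difference of -0.12 ± 0.12 (adjusted p = 0.427). Mdm4, the partner of Mdm2 that blocks p53, was called in the direction of the targets: its exon levels were 77.8, 67.4, 58.7, 57.0 and 57.1 CPM in the downshift. In the upshift they were 42.9, 47.0, 55.2, 61.6 and 59.7 CPM, and the difference was -0.98 ± 0.12 (adjusted p = 0.000281). Cdkn2a, which encodes the Mdm2 inhibitor Arf and is known to be deleted in NIH3T3 cells, had 0 exon reads in all 22 columns and 11 intron reads in total. Of 25 listed regulators of p53, 24 were tested and 14 called in the difference, 8 lower and 6 higher, with a median of -0.17, where 46.9% of all genes were called, 21.7% lower and 25.2% higher. The lowest differences (downshift minus upshift) were those of the repair factor Trp53bp1 (-1.10) and the checkpoint kinases Chek2 (-1.05) and Chek1 (-0.95), beside Mdm4. The highest differences were those of the kinase Atr (0.81), the acetyltransferase Kat5 (0.79), the deubiquitinase Usp7 (0.66) and the phosphatase Ppm1d (0.56), itself a p53 target. A difference can come from either course: Atr changed by 0.08 in the downshift (adjusted p = 0.576) and -0.74 in the upshift (adjusted p = 0.00087), and Chek1 by -0.35 (adjusted p = 0.119) and 0.60 (adjusted p = 0.0145).

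A wider list of 50 further p53 targets moved in both directions. Of its 41 tested members 20 were called in the difference, 14 lower and 6 higher, and the median was -0.26, where 21.7% of all genes were lower, 25.2% higher and the median was 0.04. The lowest differences were those of Dglucy, a D-glutamate cyclase (-2.88), the receptor Notch1 (-2.14), Gtse1, a microtubule protein of late cell cycle phases (-1.96), and Psrc1, a protein of the mitotic spindle (-1.83). The highest were those of Ccng2, cyclin G2 (1.103), Cgref1 (1.05), the lipase Abhd4 (1.01) and the ubiquitin ligase subunit Fbxw7 (0.58). Of these 4 only Ccng2 was called higher in the downshift (0.97, adjusted p = 0.0238), and the others were called lower in the upshift, Cgref1 by -1.20 there against -0.15 (adjusted p = 0.492) in the downshift. Some members often read as p53 markers were not called, such as Bbc3, which encodes the death protein Puma (0.28 ± 0.44, adjusted p = 0.615), and Btg2, an inhibitor of proliferation (0.17 ± 0.48, adjusted p = 0.793). Others were among the 14 called lower, such as Ephx1 (-1.33, adjusted p = 0.00032) and Tnfrsf10b (-1.06, adjusted p = 0.00494). Phlda3, an inhibitor of Akt, was too, at -0.94 (adjusted p = 0.00116). In the courses alone, 12 of the 41 fell and 4 rose in the downshift, where 15.9% of all genes fell and 16.3% rose. In the upshift 10 rose and 3 fell, where 14.5% of all genes rose and 18.6% fell.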

How the data were processed

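Estimated counts of exon and intron reads were deposited by the authors for 38087 genes, per the file headers, in tables named for RPKM, and were rounded to whole numbers. Alignment used STAR and bedtools on mm10, per the submitters' processing notes, without versions. Libraries were paired-end and strand-specific from total RNA depleted of ribosomal RNA, per the labels' protocols. No source used here states the annotation, the use of strand or the rule for shared reads. Both columns of a sample were summed, each gene had an offset for its mix of series, and 1 title with a mistyped temperature was placed by its description. In edgeR 4.0.16 (R 4.3.3), TMM scaling and the quasi-likelihood test were applied to all 10 samples, each course having its own intercept and its own slope on log2(h + 1). Changes are from 0 to 9 h, each error is the change over the root of F, and p-values carry the Benjamini-Hochberg adjustment over all genes. Genes had a mean exon RPKM of at least 1 (10172), those used for introns and ratios having 0.05 or more intron RPKM besides (9350). RPKM used GENCODE M21 lengths, found for 36308 genes (95.3%). Introns were fitted on their own TMM scale. Their CPM and the ratios use the exon scale. Single samples were compared with a prior count of 0.5 and a threshold of 1.5-fold. Alternatives were each pair of series, series 10 added, other scaling, DESeq2 1.42.0, limma 3.58.1 on log2 RPKM with pseudocounts of 0.1 and 0.01, no filter, linear time, a step, time as a block, no offset and each sample left out. The code was tested on simulated data. The 10 genes, and the lists of regulators, further targets and markers, were chosen with earlier results of these data known. From the lists, Trp53, Mdm4, Cdkn2a and up to 4 called genes per direction with the largest difference were named by rule. Bbc3, Btg2, Ephx1, Tnfrsf10b and Phlda3 were named after their values were seen.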

Additional observations from a re-analysis of the deposited data

How the results depend on the processing

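With 1 sample per time, the counts of calls rest on few samples, above all those at 0 h. Apart from the step fit of introns, shares of all genes called under the alternatives are not given here. Leaving out 1 sample at a time gave 4 to 8 genes called in the exon difference (4 without the upshift at 0 h), 2 to 9 in the exon downshift (2 without the downshift at 0 h) and 2 to 5 in the exon upshift (5 without the upshift at 9 h). For introns it gave 0 to 3 in the difference (3 without the upshift at 1 h), 0 to 1 in the downshift and 0 to 1 in the upshift. The step fit called 3 genes in the exon downshift, 5 in the intron downshift and 7 in the intron difference, DESeq2 called 1 in the intron difference, and series 2 and 5 alone called 1 for the exon mean of the shifts. Calls for the ratio were 0 under every alternative run, including the library as a block, which was chosen after seeing the data. Over all alternatives, 732 of the exon values per gene kept their call and direction, 36 lost the call, 16 gained one and 26 uncalled ones changed sign. None of the called changes reversed. With the time point as a block shared by the courses, 7 genes were called in the exon difference (Cdkn1a at an adjusted p of 0.0321) and 0 in the intron difference. Low counts limit Fas.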

Other observations

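The column series 10, which covers the downshift at 1 and 3 h only, entered no level or fitted change given above, only the ranges of depth, the reads of Cdkn2a over all columns and 1 of the alternatives. In it the exon level went from 127.2 CPM at 1 h to 75.1 CPM at 3 h for Cdkn1a, and from 113 to 81.7 CPM for Mdm2, scaled here by the column's total of exon reads. The same step was 87.05 to 41.7 CPM for Cdkn1a and 172 to 108.3 CPM for Mdm2 in series 5, and 103.9 to 77.1 and 155.4 to 98.2 CPM in series 11. Ccng1 went from 743.5 to 678 CPM, Eda2r from 99.3 to 61.1 CPM, Fas from 2.36 to 1.40 CPM and Trp53inp1 from 36.04 to 29.75 CPM in series 10. Bax, at 88.2 and 89.7 CPM, and Sesn1, at 20.3 and 22.1 CPM, were slightly higher at 3 h. Zmat3 stood apart in level, at 116 and 95.1 CPM in series 10 against 81.6 and 44.5 CPM in series 5.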
